A study of Mus musculus with 4 samples.

Results

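The 42 genes described here encode Wnt, BMP and FGF ligands and close relatives of the same families, 18 Wnt genes, 10 BMP and GDF genes and 14 FGF genes. A region belonged to a gene when it overlapped the RefSeq gene body (mm10) widened by 10 kb on both sides, in any cytosine context. Of 101350 regions listed by the authors in their table of differential methylation, 253 met that rule. The tissue was somatosensory cortex, taken from mice at 2.5 months of age. Methylation was read from bisulfite-treated whole-genome libraries, in which unmethylated cytosines are converted and those still read as cytosine give the methylation level. The knockout group (cKO, n = 2 libraries) has the genotype Nsd1Nex-cKO, in which Nsd1, a methyltransferase of lysine 36 on histone H3, is removed under Nex, a driver active in cortical excitatory neurons. The control group (n = 2 libraries) has the genotype Nsd1fl/+, which carries a floxed Nsd1 allele. Whether the controls carry Cre, and whether the libraries of a group come from separate animals, is not given in the sources used here. The dissected tissue also holds inhibitory neurons, glia and vessels. A different mix of cells and a different level within cells therefore cannot be told apart.

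The table gives 1 mean methylation level per group and region, in the contexts CG, CHG and CHH (H is A, C or T). It holds no value per library, no coverage and no region that was not called. The spread between libraries is therefore unknown, as is the depth, and no test over samples could be made. In the text, "lower" and "higher" are the direction of a listed region in cKO against control, and levels are the authors' group means in percent.

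Wnts are lipid-modified secreted proteins that bind Frizzled receptors, BMPs and GDFs are secreted dimers of the TGF-beta superfamily that signal through SMAD proteins, and most FGFs bind receptor tyrosine kinases. In the embryonic forebrain, signalling centres at the dorsal midline release Wnts and BMPs and the anterior pole releases FGFs, and together they set up regional identity of the cortex. Members of the list depart from that scheme: Bmp1 encodes a metalloproteinase that cleaves procollagen and not a BMP ligand. Fgf12 and Fgf14 encode FGF homologous factors, which stay inside the cell and bind voltage-gated sodium channels.

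Most ligand genes carried listed regions, and nearly all regions of the secreted ligands had less methylation in cKO. Of the 42 genes, 37 carried at least 1 listed region, where 55.5% of all 21779 protein-coding genes did so by the same rule. A CG region lower in cKO lay at 28 members (background 33.4% of protein-coding genes) and a CG region higher at 2 (background 9.11%), by the authors' deposited table. A CHH region lower in cKO lay at 29 members (background 28.8%) and a CHH region higher at 7 (background 18.0%). The share of members with a lower region thus lay above the background in both contexts, with 66.7% for CG and 69.0% for CHH. The share with a higher CHH region, 16.7%, lay near its background. The members were chosen with earlier results of these data known, and their shares were not tested against the background. The 40 members other than Fgf12 and Fgf14 have gene bodies of 3.86 kb to 155 kb, and among protein-coding genes within that range of lengths 58.9% held a listed region. In that range 35.0% held a lower CG region, 9.28% a higher CG region, 29.4% a lower CHH region and 17.9% a higher CHH region. Wnt2, Wnt9a, Fgf9, Fgf15 and Fgf20 held no listed region.

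**Figure D1:**
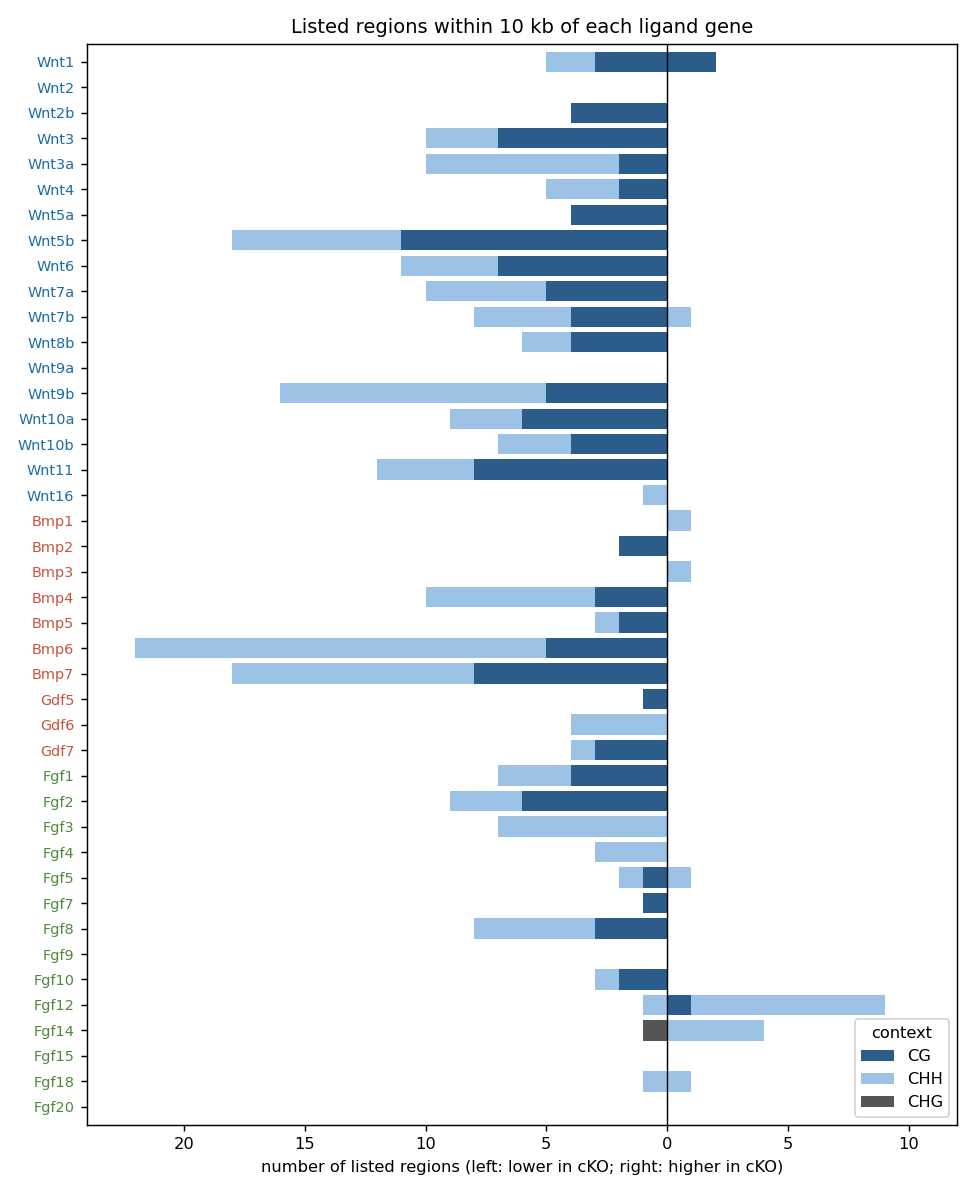
Number of listed regions within 10 kb of each of the 42 genes (bars, stacked by cytosine context), to the left for regions lower in cKO and to the right for regions higher in cKO; gene names are blue for Wnt, red for BMP and green for FGF genes. Bmp6 has 22 regions, all lower, whereas Fgf12 has 9 higher and 1 lower.

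Counted once where neighbouring genes share them, the regions were 115 in CG, 137 in CHH and 1 in CHG. Of these, 112 CG and 120 CHH regions were lower in cKO by the authors' deposited table. Over all regions at protein-coding genes, 88.6% of CG and 67.3% of CHH regions were lower. The whole table has the same main direction, with 94.4% of CG and 84.0% of CHH regions lower. The 4 CHH regions on mitochondrial DNA in the same table averaged 6.52% in control and 0.510% in cKO over 3967 cytosines, with a median difference of 5.87 points. CHH cytosines of mitochondrial DNA are commonly taken as unmethylated, so that their level is read as a measure of incomplete bisulfite conversion. Of the members' lower CHH regions 101 of 120 had a difference no larger than that median and 19, at 12 members, a larger one. Of their higher CHH regions 3 of 17 exceeded it in size. All 17 mitochondrial regions, of any context, were lower, so that median is no measure for the higher CHH regions. A difference in conversion of that direction would lower CHH levels in cKO. Its part in the CHH results was not tested.

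In CG the 3 families shared the direction, and in CHH the FGF genes parted from the others, mostly through Fgf12 and Fgf14. In the authors' deposited table the Wnt genes had 71 of 73 CG regions lower (97.3%, 95% exact interval 90.5% to 99.7%), the BMP genes 24 of 24 (lower bound 85.8%) and the FGF genes 17 of 18 (94.4%, 72.7% to 99.9%). In CHH, 56 of 57 regions of the Wnt genes were lower (98.2%, 90.6% to 99.96%) and 40 of 42 of the BMP genes (95.2%, 83.8% to 99.4%). The FGF genes had 24 of 38 CHH regions lower (63.2%, 46.0% to 78.2%), below both other families and close to the 67.3% of all protein-coding genes. The intracellular factors Fgf12 and Fgf14 held 12 of the 14 higher CHH regions of that family. They also made up 1339 kb of the 1988 kb of widened FGF genes. The secreted FGFs alone had 23 of 25 lower (92%). These intervals cover the counting of regions only, since regions of a gene share reads and cells, and the families were not tested against each other.

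The lower CG regions of FGF genes had higher median levels in both groups than those of Wnt and BMP genes. The differences between groups were of like size. The FGF medians rest on 17 regions at 6 genes, with 6 regions at Fgf2 and 4 at Fgf1. Single control levels overlapped, from 61.9% to 97.5% at FGF, 26.9% to 95.0% at Wnt and 42.7% to 90.2% at BMP genes. The median CG level in the authors' deposited table was 71.2% in control and 39.8% in cKO at Wnt genes, 69.5% and 36.8% at BMP genes and 84.4% and 52.1% at FGF genes. The median difference was -30.7, -28.7 and -27.9 points, where all protein-coding genes had -30.4. Lower CHH regions went from medians of 5.39% to 1.03% at Wnt genes, 5.17% to 0.915% at BMP genes and 6.37% to 1.45% at FGF genes. Their median differences of -4.43, -4.32 and -4.90 points lay beside -4.47 for all protein-coding genes. The sizes of the differences at ligand genes were thus close to those of protein-coding genes at large. The higher CHH regions started from lower levels, 0.393% to 3.60% in control, than the lower CHH regions, 3.04% to 17.6%, and the direction of a difference bears on the level it starts from.

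**Figure D2:**
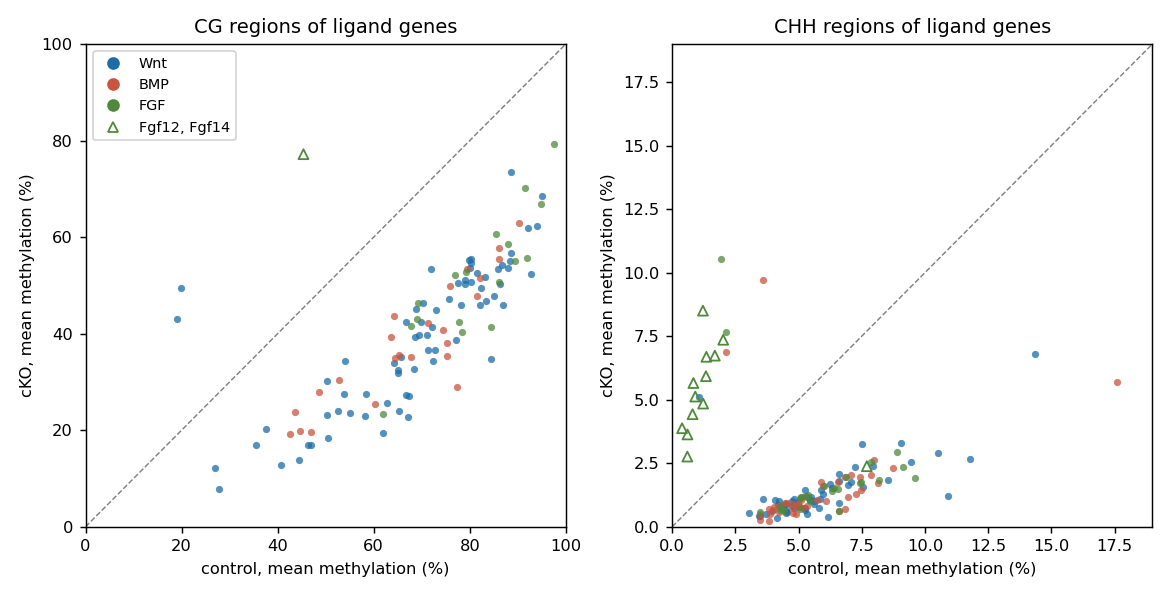
Mean methylation of each listed region at the ligand genes in control (x axis, %) and cKO (y axis, %), for CG on the left and CHH on the right; colours give the family, open triangles are Fgf12 and Fgf14, and the dashed line marks equal levels. In CG 112 of 115 points lie below the line, and in CHH 12 of the 17 points above it belong to Fgf12 and Fgf14.

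Bmp4 had the densest set of regions of all members and the only one at a listed promoter. BMP4 is a signal of the dorsal telencephalic midline and of many other embryonic tissues. By the authors' deposited table, CG regions (3) and CHH regions (7) lie around its body of 7.14 kb (chromosome 14, 46383525 to 46390669, minus strand), none of them inside it, and all 10 are lower in cKO. The CG region at the promoter (46390727 to 46390835) begins 58 bases before the start and ends 166 bases before it. It went from 42.7% in control to 19.2% in cKO. The CHH regions next to it, 0.388 kb and 0.802 kb upstream of the start, went from 8.0% to 2.62% and from 6.85% to 1.94%. Further CG regions beyond the 3' end went from 74.5% to 40.7% and from 44.6% to 19.8%. The regions thus lie on both sides of the gene.

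The promoter of Bmp4 is shown because the CG region falls inside it. The sequence holds the 250 bases before the RefSeq start (GRCm38.p6, chr14:46390670-46390919, minus strand, 5′ to 3′), with the bases of the CG region in capitals.
Bmp4: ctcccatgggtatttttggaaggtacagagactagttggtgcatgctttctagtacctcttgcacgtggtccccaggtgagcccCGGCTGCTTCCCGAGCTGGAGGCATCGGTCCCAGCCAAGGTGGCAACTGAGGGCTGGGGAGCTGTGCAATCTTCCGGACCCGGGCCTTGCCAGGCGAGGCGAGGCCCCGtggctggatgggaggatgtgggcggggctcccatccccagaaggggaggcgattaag
The capitals span 109 bases with 8 CG dinucleotides, and the authors list 16 cytosines for the region, which is the number of CG cytosines on both strands. Of the 11 CG dinucleotides in the 250 bases, 8 thus lie inside the region.

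**Figure D3:**
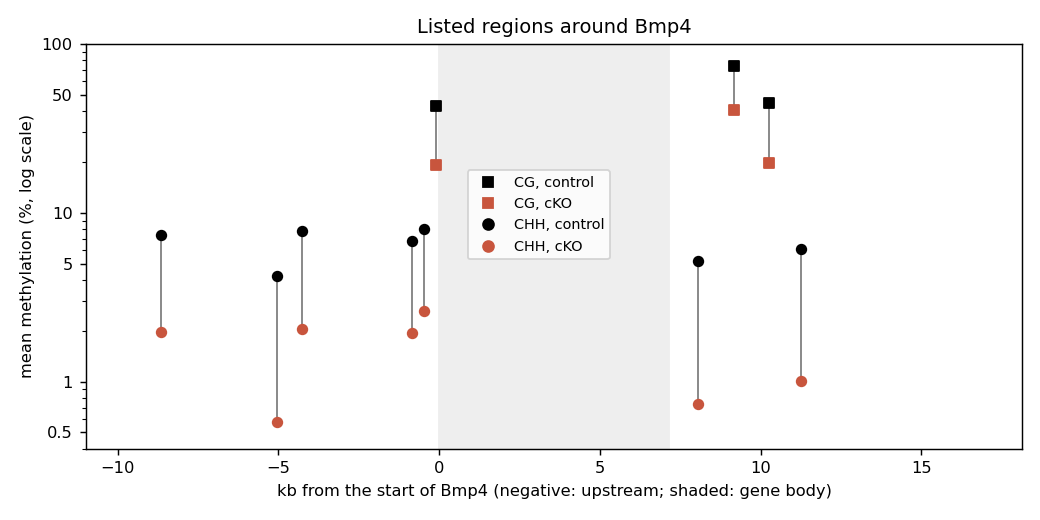
Mean methylation (y axis, %, log scale) of the 10 listed regions around Bmp4 against the distance of their centre from the start in kb (x axis); squares are CG and circles CHH regions, black is control, red is cKO, and the gene body is shaded. All 10 regions are lower in cKO, and the CG region nearest the start goes from 42.7% to 19.2%.

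Most ligand promoters carried no listed region. RefSeq promoter entries (250 bases before to 50 after a start) were at hand for 29 members with 35 starts, and 1 start, that of Bmp4, had a region inside the 300 bases, 2.86% of starts against 2.74% of all 32851 promoters in that table. A region within 1 kb of the start was found at 7 of the 35 starts (20.0%), where 10.6% of all starts had one. They belonged to Bmp4, Wnt2b, Wnt3, Wnt5b, with 2 of its starts, Wnt6 and Wnt9b. The ligand promoters held more CG dinucleotides than promoters in general, with a median of 26 in 300 bases (range 4 to 58) against 7. The promoter with the most, that of Wnt9a, is shown as the contrast to Bmp4, since Wnt9a has no listed region. It is given for the 250 bases before the start (GRCm38.p6, chr11:59306680-59306929, plus strand, 5′ to 3′), with its 48 CG dinucleotides in capitals.
Wnt9a: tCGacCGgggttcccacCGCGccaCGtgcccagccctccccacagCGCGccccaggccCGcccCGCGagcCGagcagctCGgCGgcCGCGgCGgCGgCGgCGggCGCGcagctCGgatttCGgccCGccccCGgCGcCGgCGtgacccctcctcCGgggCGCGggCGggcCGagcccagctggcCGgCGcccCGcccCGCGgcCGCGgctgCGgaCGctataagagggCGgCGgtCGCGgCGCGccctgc
No methylation level can be given for this promoter, since an uncalled stretch has no row.

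Among the Wnt genes of the dorsal midline and cortex, CG and CHH regions were lower in nearly every case. Wnt3a, a cortical hem signal needed for the hippocampus, had 2 CG and 8 CHH regions in the authors' deposited table, all lower. Its CG region with the largest area statistic, the authors' summed score of a region, went from 66.7% to 27.4% (chromosome 11, 59266699 to 59266938), and its CHH regions from between 4.75% and 6.95% to between 0.751% and 1.80%. The neighbouring Wnt9a, 16.1 kb away, held no region. Wnt2b, another hem Wnt, had 4 CG regions, from 52.5% to 87.0% in control and 23.9% to 47.8% in cKO, and Wnt8b had 4 CG and 2 CHH regions, all lower. The strongest CG region counted to Wnt8b (68.5% in control, 39.3% in cKO) lies inside the neighbouring gene Sec31b.

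Wnt7a and Wnt7b, which act on brain endothelial cells, had 10 and 9 regions. In the authors' deposited table Wnt7b held the lowest cKO level of all members in CG, 7.92% against 27.7% in control over 28 cytosines (chromosome 15, 85576161 to 85576416). The strongest CHH region of Wnt7b went from 10.5% to 2.91%. Wnt7b was also the only Wnt gene with a higher CHH region, 1.04% in control and 5.12% in cKO over 21 cytosines inside the gene. The strongest CG region of Wnt7a went from 72.0% to 53.4%, and its other 9 regions were lower too.

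Wnt5a, Wnt5b and Wnt11, classed as Wnts that often signal without beta-catenin, had 4, 18 and 12 regions, all lower in the authors' deposited table. Wnt5b had the most regions of any Wnt gene, 11 in CG and 7 in CHH in and around its body of 112 kb. The strongest CG region of Wnt5b went from 92.1% to 61.8%, and the CHH region 7.91 kb before its body from 10.9% to 1.22%, the largest CHH difference of the Wnt genes (-9.70 points). At Wnt5a the strongest CG region, over 32 cytosines, went from 88.5% to 73.5%. Wnt11 had 8 CG regions, with levels of 50.2% to 94.1% in control and 30.2% to 62.3% in cKO, so that the ranges overlap between regions although each region was lower.

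Pairs of Wnt genes lie side by side in the genome and share regions. Wnt3 and Wnt9b on chromosome 11 overlap by 1.098 kb and held 22 regions in all, 4 of them shared, every one lower in the authors' deposited table. The CHH region with the largest area statistic of both (103776040 to 103776552, 177 cytosines) lies in Wnt3 and went from 7.54% to 1.58%. Wnt6 and Wnt10a on chromosome 1, 6.70 kb apart, held 18 regions, 2 shared and all lower. The largest CG difference of all members is in Wnt6, from 84.5% to 34.7% (74775255 to 74775382). A stretch just beyond Wnt10a went from 62.0% to 19.4% over 797 bp.

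Wnt1, the signal of the midbrain and hindbrain border, and Wnt10b lie 11.7 kb apart on chromosome 15 and share 3 regions. The CG regions between them went from 46.9% to 16.9% and from 46.4% to 16.9% in the authors' deposited table. The CG regions higher in cKO near Wnt1 stand at the edge of its window, 9.69 kb and 9.96 kb from the gene body, with 18.98% and 19.9% in control and 43.1% and 49.5% in cKO. The farther of these overlaps Ddn, which encodes the postsynaptic protein dendrin. The other 5 regions of Wnt1 were all lower. Wnt4 had 2 CG and 3 CHH regions, all lower, with the strongest CG region from 81.4% to 52.5%. Wnt16 had 1 CHH region, from 4.56% to 0.590%.

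The BMP genes ranged from 22 regions at Bmp6 to 1 region each at Bmp1, Bmp3 and Gdf5. Bmp6, known as the inducer of hepcidin in iron balance, had the most regions of all members in the authors' deposited table, 5 in CG and 17 in CHH, all lower. The 17 CHH regions had levels of 3.84% to 7.48% in control and 0.221% to 1.76% in cKO, and 16 of them lie in the body of 155 kb. Lower CHH regions of all protein-coding genes had medians of 5.60% in control and 1.06% in cKO. The strongest CG region of Bmp6 went from 75.3% to 38.0% (chromosome 13, 38487961 to 38488476). Bmp7, a kidney and eye morphogen also made by the meninges, had 8 CG and 10 CHH regions, all lower. A CHH region of Bmp7 went from 17.6% to 5.71% over 101 cytosines (chromosome 2, 172936066 to 172936304), the largest CHH difference of all members (-11.9 points), and the CG region next to it, from 172936374 to 172936791, went from 82.2% to 51.6%.

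The other BMP genes had fewer regions. Gdf7, a roof plate signal of the spinal cord, had a CG region from 75.3% to 35.4% over 811 bp (chromosome 12, 8299823 to 8300633) with a CHH region inside it from 5.74% to 1.05% in the authors' deposited table. That stretch also lies in Ldah. Gdf6 had 4 CHH regions, all lower, the strongest from 6.96% to 1.16%, and no CG region. Bmp2 and Gdf5 had lower CG regions alone, all in their flanks, with the strongest from 48.6% to 27.9% and 60.3% to 25.4%. Bmp5 had 2 CG regions and 1 CHH region, all lower. Bmp1 and Bmp3, by contrast, each held 1 region, in CHH and higher: from 2.13% to 6.89% in Bmp1 and from 3.60% to 9.70% in Bmp3, which encodes an inhibitory BMP. They were the only members with higher regions alone, where 2435 of 21779 protein-coding genes had higher regions alone.

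Among the secreted FGFs, the patterning signal Fgf8 had 3 CG and 5 CHH regions, all lower. In the authors' deposited table its strongest CG region went from 78.4% to 40.2% and its strongest CHH region from 6.58% to 0.605% over 133 cytosines (chromosome 19, 45738795 to 45739208). Fgf2, a mitogen of neural progenitors, had 6 CG regions, from between 61.9% and 94.8% in control to between 23.4% and 67.0% in cKO, and 3 lower CHH regions. Fgf1 had 4 CG and 3 CHH regions, all lower, in a stretch that also lies in Arhgap26. Fgf10 had 2 CG regions and 1 CHH region and Fgf7 1 CG region, all lower. The region of Fgf7 also lies in Fam227b.

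Fgf3 and Fgf4, next to each other on chromosome 7, carried CHH regions without any CG region. Together they held 9 CHH regions, 1 of them shared and all lower in the authors' deposited table, none inside a gene body. The control levels ran from 4.26% to 7.87% and the cKO levels from 0.609% to 2.57%. Fgf15, an endocrine FGF of the gut that lies 31.3 kb beyond Fgf4, held no region. The difference at each of these 9 regions was below the mitochondrial median of 5.87 points.

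Fgf5 and Fgf18 had regions of both directions, each with the higher region inside the gene and the lower ones outside. Fgf5, a regulator of hair growth, held the largest CHH gain of all members, from 1.93% to 10.5% over 61 cytosines near the 3' end of its body (chromosome 5, 98276551 to 98276693) in the authors' deposited table. The CG region 7.38 kb before its start was lower, 67.7% against 41.5%, and a CHH region nearby went from 4.32% to 0.762%. In Fgf18, a skeletal FGF, a CHH region inside the gene went from 2.12% to 7.66%, and 1 outside it from 5.06% to 0.692%.

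The intracellular FGF homologous factors stood apart from the secreted ligands. Fgf12 (chromosome 16, 28157783 to 28753243) had 8 CHH regions and 1 CG region higher in cKO in the authors' deposited table, all inside its body of 595 kb. Its 8 higher CHH regions ranged from 0.393% to 2.02% in control and from 3.63% to 8.51% in cKO. The CG region went from 45.4% to 77.2% over 6 cytosines (28443297 to 28443356). The single lower region of Fgf12, in CHH (7.70% to 2.38%), lies outside the gene, 9.96 kb from its body.

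Fgf14 (chromosome 14, body of 703 kb) had 4 CHH regions, all higher, from between 0.602% and 0.915% in control to between 2.76% and 5.66% in cKO. The CHG region in Fgf14 was lower, from 5.18% to 0.133% over 10 cytosines. Its difference of -5.04 points was smaller in size than the mitochondrial CHH median of 5.87 points. The part of bisulfite conversion in it was not tested. Of protein-coding genes of any length 0.872% held a lower CHG region, and the share among long genes was not counted. Neither Fgf12 nor Fgf14 had a CG region lower in cKO. Their length sets a different background: of the 227 protein-coding genes with a body of 500 kb or more, 80.6% held a higher and 68.3% a lower CHH region, 75.3% a lower and 32.6% a higher CG region, and 98.2% any listed region. Of these 227 genes, 105 had at least 4 higher CHH regions, and 26 of the 105 had no lower CG region, as did Fgf12 and Fgf14. The limit of 500 kb and the count of 4 were chosen after the values were seen.

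**Figure D4:**
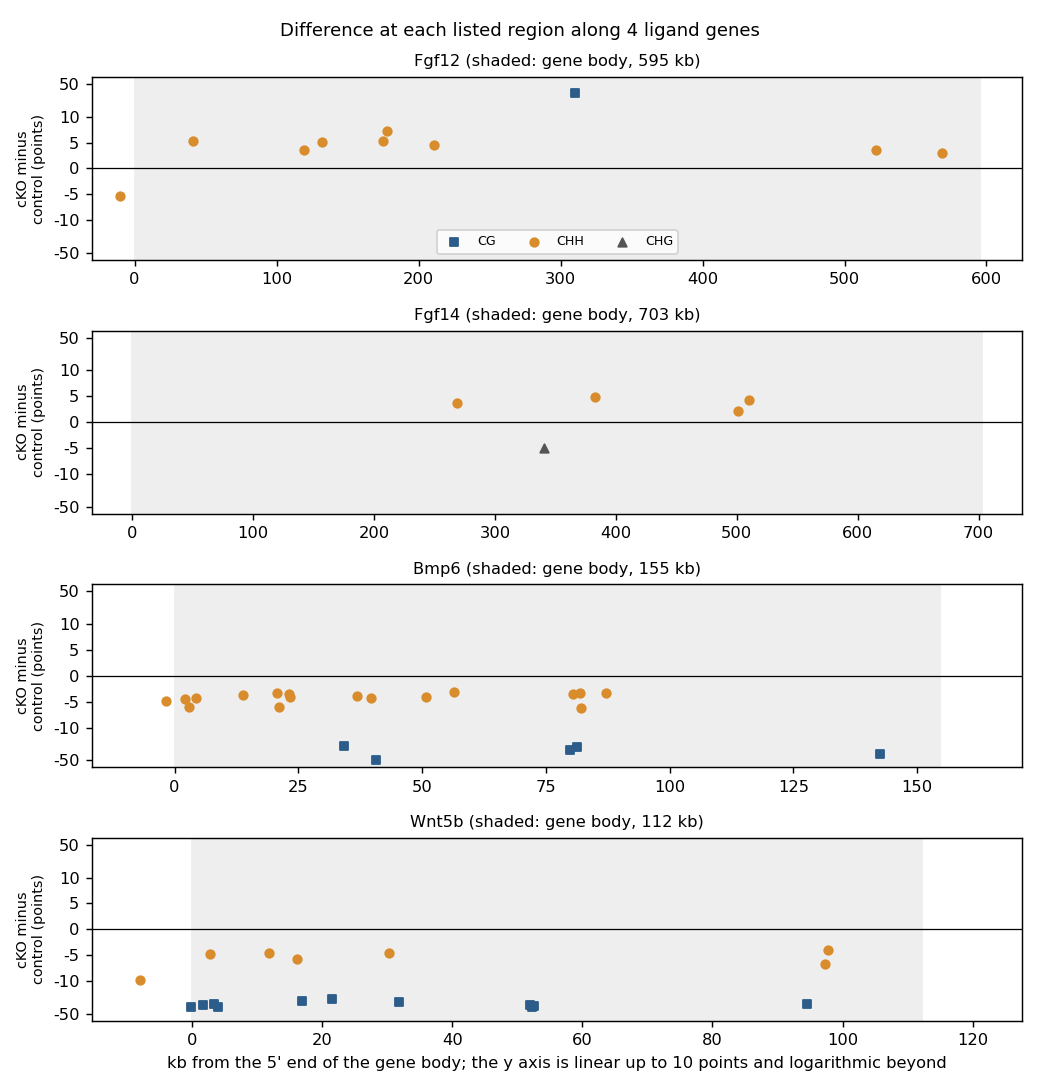
Difference between cKO and control (y axis, percentage points, linear to 10 and logarithmic beyond) at each listed region against kb from the 5' end of the gene body (x axis), for Fgf12, Fgf14, Bmp6 and Wnt5b; squares are CG, circles CHH and triangles CHG regions, and the gene body is shaded. Regions inside Fgf12 lie above 0, the 22 regions of Bmp6 and the 18 of Wnt5b below 0.

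Inside and outside gene bodies, the members other than Fgf12 and Fgf14 had lower regions at like rates. Per 100 kb, lower CG regions numbered 5.19 in bodies and 5.12 in the 10 kb flanks, and lower CHH regions 5.26 and 5.88, with shared regions counted at each gene. Their 5 higher CHH regions all lay in gene bodies. Of all 17 higher CHH regions of the members, 17 were in gene bodies and 0 in flanks, while 48 of 125 gene and region pairs with a lower CHH region were in flanks. Gene bodies made up 2762 kb and flanks 840.0 kb of all windows, and 1463 kb and 800.0 kb without Fgf12 and Fgf14. Whether higher and lower regions differ in place was not tested.

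Relative to their length, Wnt genes carried the most regions. The density in the authors' deposited table was a median of 14.8 regions per 100 kb of widened gene for Wnt genes, 8.52 for BMP genes and 3.52 for FGF genes, against 1.55 for all protein-coding genes. Of the members 23 exceeded the 90th percentile of all protein-coding genes, 9.88 per 100 kb (background 10%): 14 Wnt, 5 BMP and 4 FGF genes. Bmp4 led with 36.8 per 100 kb, followed by Wnt11 with 30.3, Fgf8 with 30.2 and Wnt1 with 29.2. Fgf12 and Fgf14 had 1.62 and 0.691. Density, like the counts, depends on which stretches the authors' caller could call, which is not given in the sources used here.

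**Figure D5:**
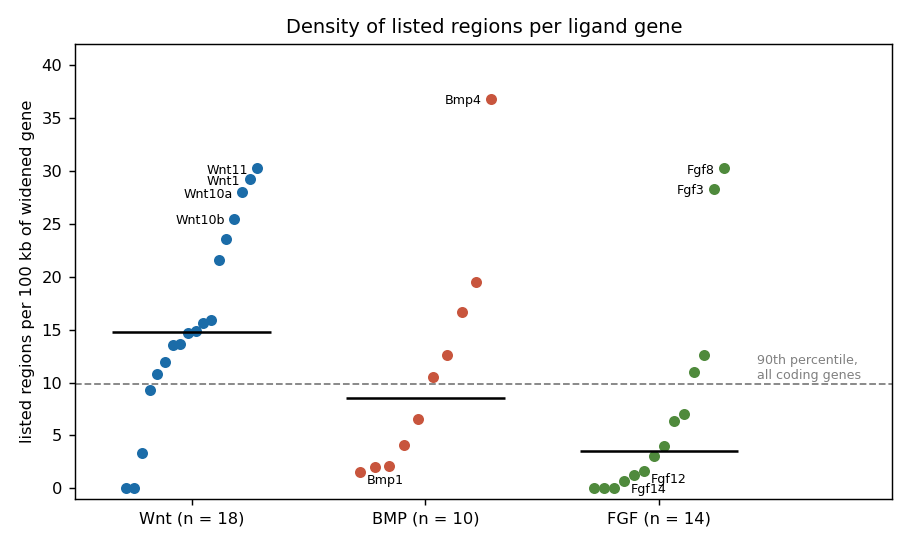
Listed regions of any context and direction per 100 kb of widened gene (y axis) for each member (points, sorted within each family), with the family median (bar) and the 90th percentile of all protein-coding genes (dashed line). Bmp4 stands highest at 36.8 and 14 of 18 Wnt genes lie above the line at 9.88.

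CG and CHH regions often lay side by side and had the same direction. Of the 115 CG regions of the members, 38 (33.0%) had a CHH region within 1 kb, and in all 38 each such region had the direction of the CG region. Over all protein-coding genes 18.2% of CG regions had such a neighbour, and 99.5% of those agreed in direction. The shared direction is therefore general to the table, while the neighbours were more frequent at ligand genes, which also had more regions per length. That difference in frequency was not tested.

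Receptors, antagonists and intracellular parts of the 3 pathways, in 10 lists, held lower CG regions more often than higher ones. Of 98 such genes, 64 (65.3%) held a CG region lower in cKO, where 33.4% of protein-coding genes did, and 12 (12.2%) a higher one, where 9.11% did, in the authors' deposited table. A lower CHH region lay at 50 of them (51.0%, background 28.8%) and a higher one at 21 (21.4%, background 18.0%). The shares with higher regions thus lay near the background. The lists, like the members, were chosen with earlier results of these data known. The Wnt receptors and co-receptors had 12 of 16 genes with lower CG regions, led by Fzd7 (65.0% in control, 36.7% in cKO), and 3 of 16, Lrp6, Fzd9 and Ptk7, with higher ones. The co-receptor Lrp6 had 3 higher CG regions, the strongest from 39.2% to 66.5%, and no lower one. Of the Wnt antagonists, counted with the membrane receptors Kremen1 and Kremen2, 8 of 13 had a lower CG region. That of Sfrp1, which binds Wnts, went from 82.2% to 47.1%, and Dkk3 had a higher one, from 48.8% to 69.8%. Among Wnt agonists, their receptors and secretion factors 8 of 11 had a lower CG region and 0 a higher one. The strongest, at the ubiquitin ligase Rnf43, went from 79.7% to 48.1%. In CHH 5 of the 11 held a lower and 4 a higher region. Of 12 intracellular Wnt pathway genes 7 had lower CG regions and 0 higher ones. Of their 74 lower CG regions 28 lay at the transcription factor Tcf7l1 (75.1% to 36.9% at the strongest). In CHH 5 of the 12 held a lower and 2 a higher region.

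The BMP receptors had regions of both directions. Of 7 BMP receptors, 4 held a lower CG region and 3 a higher one, with Bmpr1b from 62.1% to 20.8% and Bmpr1a from 13.5% to 37.5% in the authors' deposited table. In CHH 2 of them held a lower and 4 a higher region, a split unlike that of the secreted BMP ligands, although the difference was not tested. Of 11 secreted BMP antagonists 6 held a lower CG region (Nbl1, 28.3% to 12.3%) and 2 a higher one (Chrd, 17.1% to 42.9%). Of 10 SMAD and Id genes 7 held lower CG regions and 0 higher ones, led by the inhibitory Smad6 (60.8% to 22.6%). In CHH 7 of the 10 held a lower region (background 28.8%) and 3 a higher one (background 18.0%).

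The FGF receptors and co-receptors had 5 of 7 genes with lower CG regions and 6 with lower CHH regions. Fgfr2 led with 16 CG regions, the strongest from 79.4% to 34.8%, and Fgfr1 also had a short higher region, from 7.49% to 15.1%. Of 8 FGF feedback inhibitors 5 held lower CG regions, led by Il17rd (78.9% to 34.1%), and Spred2 also a higher one (44.9% to 75.1%) in the authors' deposited table. Of the FGF target transcription factors, Etv1 and Etv5 held lower CG regions, and the strongest of Etv5 went from 55.2% to 21.9%. Etv5 held a higher one too, from 50.5% to 77.0%.

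Genes that mark cell types of the cortex also carried lower regions, where 33.4% of protein-coding genes held a lower CG region and 28.8% a lower CHH region. A CG region lower in cKO lay at 7 of 7 astrocyte, 5 of 7 oligodendrocyte lineage, 5 of 7 microglia, 6 of 7 endothelial and mural and 5 of 7 meningeal fibroblast markers in the authors' deposited table, and at 3 of 6 markers of excitatory neurons and 2 of 7 of interneurons. The excitatory neuron markers held 4 lower CG regions and 7 higher ones, the latter all at 1 gene. Higher CG regions numbered 2 at oligodendrocyte lineage markers and 1 at endothelial and mural markers, at 1 gene each, and 0 in the remaining lists. Of protein-coding genes 9.11% held a higher CG region. In CHH the interneuron markers held 33 lower regions at 5 of 7 genes, as many genes as the astrocyte, oligodendrocyte, microglia and fibroblast markers. The endothelial and mural markers held 30 at 7 of 7 genes, and the excitatory neuron markers 1 lower region. A higher CHH region lay at 2 of 7 microglia markers (background 18.0%). The astrocyte, interneuron and oligodendrocyte lineage markers had 1 such gene of 7 each, and the remaining lists 0. The median CG difference in these lists ran from -26.2 points for microglia to -32.5 points for excitatory neurons, close to the -29.9 points of the ligand genes. The part of a change in cell mix in the ligand results was not tested.

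The limit of 10 kb bears on the count of higher CG regions. In the 1 kb inside the limit lie 13 gene and region pairs of the members, 11 of them lower, and in the 1 kb outside it 10, all lower. The 2 higher pairs inside are the CG regions near Wnt1, which are 2 of the 3 higher CG regions of all members. Just outside stand CG regions near Wnt7b (10.2 kb from the gene, 91.8% to 51.6%) and Bmp7 (10.4 kb, 73.2% to 35.3%).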

How the data were processed

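The authors' deposited table lists regions of differential methylation in mm10, with a mean level per group deposited as a fraction, printed here as a percent, and an area statistic deposited as a score with no fixed range, used only to choose which region of a gene is named. The deposited difference equals cKO minus control. The number of cytosines and the length of a region are the authors'. CASAVA, Bowtie2 and the build mm10 appear in the submitters' processing notes, without versions or roles. The sources used here do not give the region caller, its thresholds or how libraries were pooled, and coverage and conversion rate are unknown.

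Genes were placed by the RefSeq annotation of GRCm38.p6 (mm10), which matched 42 of 42 members and 98 of 99 pathway genes. Genes on unplaced sequence, on mitochondrial DNA or in the first 3 Mb of a chromosome other than Y were left out, leaving 21779 protein-coding genes. Overlap meant at least 1 bp after widening by 10 kb. Densities count a region at each gene that it touches; shares of regions count it once per family. The overlap procedure was tested on simulated data against a direct search and gave the same pairs. Promoter sequences are RefSeq's. Shares have exact Clopper-Pearson intervals (95%), which cover counting error only. Computation used Python 3.11.15, pandas 2.3.3 and scipy 1.17.1.

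A gene is named by its counts and by the region with the largest absolute area statistic in CG and CHH. Other regions, and Ddn, Sec31b, Ldah, Arhgap26 and Fam227b, were singled out after their values were seen. From each pathway list the gene with the strongest CG region per direction is named. Members and lists were chosen with earlier results of these data known. Exons and strand-specific methylation were not analysed here.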

Additional observations from a re-analysis of the deposited data

How the results depend on the processing

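Of 65 values recomputed for 10 results under 7 alternatives, 45 stayed within 1.5 times the reported count or inside the 95% interval of the reported share and 20 did not, and the main direction of CG reversed in none of the 3 families. The number of members with a CG region higher in cKO, 2 as reported, was 1 with the gene body alone, 7 with 50 kb of widening, 1 for differences of at least 30 points, 0 with at least 10 cytosines and 1 without Bmp1, Fgf12 and Fgf14. The number with a higher CHH region, 7 as reported, was 16 with 50 kb and 4 for differences of at least 5 points. It was 4 without those 3 genes and 3 above the mitochondrial median, a filter chosen after the data were seen. The mitochondrial regions were all lower, so that filter is no measure for higher regions. Under that filter 12 members in place of 29 kept a lower CHH region. The shares over all protein-coding genes were not recomputed under the alternatives. These counts therefore have no background of their own setting beside them. The share of lower CG regions was 100% for Wnt genes with the gene body alone, for large differences and with at least 10 cytosines, and 100% for FGF genes with at least 10 cytosines or without the 3 genes. The share of lower CHH regions of Wnt genes was 89.9% with 50 kb, and 100% for differences of at least 5 points or above the mitochondrial median. That of FGF genes was 36.4% of 22 regions in gene bodies alone, where most regions were higher, and 92% without Fgf12 and Fgf14. No paired analysis was possible because the table holds no value per library, and for the same reason no library could be left out. Within that wide tolerance, the members with a lower CHH region went from 29 to 20 with the gene body alone and for large differences, and the share of lower CHH regions of FGF genes from 63.2% to 77.8% with 50 kb. The unknown depth sets no interval on any level.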
